A study of Rattus with 6 samples.

Results

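The short internal exons described here are exons of at most 45 bases that lie neither first nor last in their gene, in the rat pituitary cell line RC-4B/C. They were taken from a deposited table of exon levels by length and position alone, from genes with 5 or more listed exons. That table did not list every annotated exon, with 31 of 121 listed in Ryr1 and 12 of 22 in Snap25. Each short exon in it had over 10 reads in at least 4 libraries. All shares given here are thus of listed, detected exons, and exons that were not listed are not described. The rule kept 2588 exons in 1829 genes, out of 118147 listed exons in 12801 genes, of which 8209 genes had 5 or more exons and held 91559 internal exons. Lengths ran from 20 to 45 bases with a median of 38. There were 275 exons of 27 bases or less, 843 of 28 to 36 bases and 1470 of 37 to 45 bases. The shortest exon in the whole table had 20 bases, so still shorter microexons were not analysed here. In 1357 genes there was 1 short exon, in 472 genes there were 2 or more, and the most in any gene was 25.

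Very short exons are called microexons, and most are cassette exons that a cell either splices into a messenger RNA or skips. They are hard for the spliceosome to define because factors at their ends have little room, so their inclusion depends strongly on splice-site strength and on RNA-binding proteins in the flanking introns. Srrm3 and Srrm4 promote microexon inclusion in neurons and endocrine cells, Ptbp1 represses it in many other cells, and members of the Rbfox, Nova, Celf and Elavl families act on overlapping sets. Microexons in such programmes usually keep the reading frame and alter a few amino acids in proteins of the cytoskeleton, vesicle traffic and adhesion.

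RC-4B/C is a single line, derived from a rat pituitary adenoma. Its cells received either ASA, which the series title names as aspirin, the cyclooxygenase inhibitor acetylsalicylic acid, or the solvent DMSO, with 3 libraries in each group and no genetic change in either. Dose and duration were not given in the sources used here, and the second cell line named in the study's design was not analysed here. Nothing in the labels says that the libraries came from separate cultures, so p-values measure the spread between these libraries, which may be technical. The fits also borrow spread from other exons or genes of like level.

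Each library held 66492448 to 94486061 reads in listed exons, and 0.775% to 1.02% of them fell in the short internal exons. The median short exon had 75 reads in ASA replicate 2 and 121 to 152 in the other 5 libraries. In ASA replicate 2, 21 short exons had 0 reads, against 1 in DMSO replicate 2 and none in the other 4 libraries. Exon values of this library scattered more around the median of their gene, and the fit gave it a weight of 0.0641 against 1.45 to 2.17 for the others. The lactotroph markers Prl and Pou1f1 were present in all libraries, with Prl ranging from 14037 to 62101 RPKM (reads scaled to exon length and library depth) in ASA and from 22006 to 62170 in DMSO. Of 5 fibroblast markers, Dcn and Lum were listed and had a summed level of 2138 to 3279 RPKM in ASA and 1104 to 1164 in DMSO, while Col1a1, Col1a2 and Pdgfra had no listed exons. Dcn rose by 1.32 on the log2 scale (adjusted p = 0.0213, limma), and Lum stood at means of 54.5 RPKM in DMSO and 49.0 in ASA. Of 5 neuronal markers, 4 were listed at a sum of 286 to 353 RPKM in ASA and 245 to 299 in DMSO, and Rbfox3 had no listed exons. Of these 4, Map2 rose by 1.01 (adjusted p = 0.0297). Of 6 markers of other hormone cells, Pomc and Cga were listed at a sum of 24.7 to 30.6 RPKM in DMSO and 2.08 to 5.69 in ASA, and Cga fell by 3.30 (adjusted p = 0.0137). No endothelial or folliculostellate marker was listed, and of 3 leukocyte markers only Cd14 was, at 3.28 to 19.3 RPKM in ASA and 18.2 to 34.5 in DMSO. The part of these differences in the exon results was not tested.

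Inclusion was approximated by a relative level of coverage, with no reads across splice junctions, the deposited log2 RPKM of an exon minus the median log2 RPKM of the other listed exons of its gene in the same library. A relative level of 0 means that the exon was covered per base like the gene's median exon, and -1 means 50% of that. In DMSO the short internal exons had a median relative level of 0.62 (SD of the 3 library medians 0.00806, n = 3). Thus the median short exon was covered more densely than the median exon of its gene, and 1906 of 2588 (73.6%) were above 0 in all 3 DMSO libraries. A total of 515 had a mean relative level above 1 and 247 (9.54%) had a mean below -1.

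Some of this coverage touched the way the exons were listed. Of the 2588 short exons, 318 (12.3%) lay within 50 bases of another listed exon of the same gene, and 277 of those gaps were of 5 bases or less. Only 0.563% of longer internal exons had such a neighbour. In the 318 exons, 71.4% of the values did not correspond to a whole number of reads, against 3.90% in the other short exons and 3.91% in longer internal exons. Among exons of 27 bases or less, 120 of 275 had such a gap, so the description by length that follows uses the 2270 short exons whose listed neighbours on both sides were 50 or more bases away.

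Relative level depended on length, and the shortest exons stood apart from the rest. In DMSO the 155 exons of 20 to 27 bases had a median of -0.99, with the middle of the distribution running from a lower quartile of -2.47 to an upper quartile of 0.77. Of these 155 exons, 77 (49.7%) were below -1, 46 were below -2 and 63 were above 0. The 731 exons of 28 to 36 bases had a median of 0.79 and 8.76% of them were below -1. For the 1384 exons of 37 to 45 bases the median was 0.63 and 5.42% were below -1. The 88470 longer internal exons had a median of -0.01 and 3.13% below -1. Exons up to 27 bases thus held a far larger share of sparsely covered members than any other length class.

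At the limit of the rule, the 272 exons of 45 bases had a median relative level of 0.48 and 5.51% were below -1. The 189 internal exons of 46 bases, just outside, had a median of 0.63 and 2.12% below -1. All exons of 45 bases and none of 46 have a length divisible by 3. Over the length classes from 28 bases on, the median declined with length, through 0.47 at 46 to 54 bases to -0.47 in exons of more than 300 bases. How long the reads were, and how a read that extends beyond a short exon was counted, is stated in no source used here. The part of either in the length trend was not tested.

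**Figure D1:**
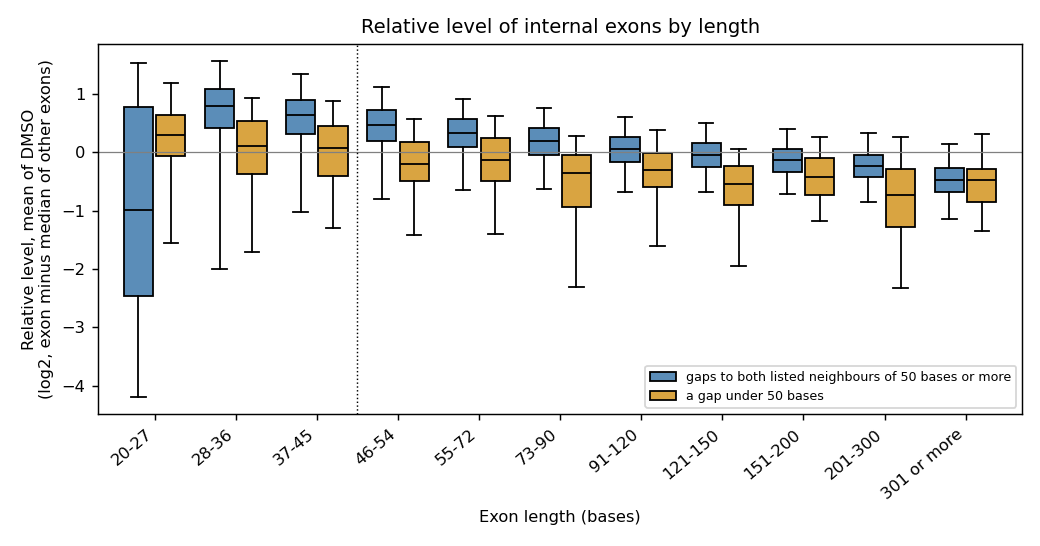
Relative level of internal exons in DMSO (log2, mean of 3 libraries) by exon length in bases. Boxes give the quartiles and the median, whiskers the 5th and 95th percentiles, blue for exons with both gaps of 50 bases or more and yellow for exons with a gap under 50 bases, and the dotted line marks the 45-base limit. The blue box of 20 to 27 bases has its median at -0.99, while those of 28 to 36 and 37 to 45 bases lie at 0.79 and 0.63.

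Lengths that keep the reading frame made up a larger share of the short exons than of all longer ones together. A length divisible by 3 was found in 70.5% of exons of 27 bases or less, in 52.2% of those of 28 to 36 bases, in 45.6% of those of 37 to 45 bases and in 39.3% of longer internal exons. Just past the limit, at 46 to 54 bases, the share was 47.9%, so exons of 37 to 45 bases did not stand out from the next class. With close neighbours left out the share in exons of 27 bases or less was 63.9%. Frame and level were related in opposite ways on the 2 sides of 27 bases. Among exons of 28 to 45 bases, 81 of 991 frame-keeping exons (8.17%) were below -1 in DMSO against 58 of 1124 others (5.16%). Longer internal exons had the same direction, with 3.69% of frame-keeping exons and 2.77% of others below -1. Among exons of 27 bases or less, 42 of 99 frame-keeping exons (42.4%) were below -1 against 35 of 56 others (62.5%). These shares are descriptions over exons, which share libraries and often genes, and carry no test.

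A set of short exons was sparsely covered in nearly every library. Of the 2270 exons with distant neighbours, 162 were below -1 in all 5 libraries other than ASA replicate 2, and 109 of these were below -1 in that library too. Their median relative level was -2.76, -2.80 and -2.67 in DMSO and -2.85, -1.90 and -2.46 in ASA replicates 1, 2 and 3. In 98 of the 162 exons ASA replicate 2 was above all other 5 libraries. The choice of exons by the other 5 libraries favours that order, so the count of 98 is no measure of that library.

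The lowest short exons in DMSO, chosen by rank among exons of named genes, were covered at a few percent of their gene's median exon or less. A 25-base exon of Bsg, which encodes basigin, the partner of monocarboxylate transporters, had the lowest level of all named exons (chr7:12876206-12876230, minus strand). Its relative level was -7.05, -7.80 and -6.95 in DMSO and -8.37, -8.20 and -8.09 in ASA, or 0.649% of the gene's median exon in DMSO. The 3 ASA libraries all lay below the DMSO libraries, but the weighted difference of -1.01 had a 95% interval from -4.15 to 2.13 and an adjusted p of 0.951. The SD was only 0.47 in DMSO and 0.15 in ASA, and the SE of 1.34 also draws on the spread of other exons at like levels. Bsg as a whole was at 2154 RPKM in DMSO, and the exon still drew only 37 to 51 reads per DMSO library.

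A 22-base exon of Nptn, which encodes neuroplastin, a relative of basigin (chr8:63443328-63443349), stood at -5.64, -5.56 and -4.40 in DMSO and -5.88, -2.82 and -4.12 in ASA. The groups overlapped. A 25-base exon of Ythdf2, a reader of methylated adenosine in messenger RNA (chr5:150389481-150389505), stood at -3.68, -6.79 and -4.01 in DMSO and -3.53, -0.61 and -3.29 in ASA, on 1 to 15 reads in DMSO. The other low exons were somewhat longer, and in several ASA replicate 2 alone set the ASA range.

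Txnl1, a thioredoxin-like protein, had a 36-base exon at -6.19, -4.32 and -4.93 in DMSO and -4.45, -0.77 and -3.21 in ASA (chr18:59061059-59061094). For a 40-base exon of Ppp1cc, a catalytic subunit of protein phosphatase 1, the values were -4.71, -4.71 and -5.32 in DMSO and -4.28, -0.98 and -3.27 in ASA (chr12:39881302-39881341). All ASA values lay above all DMSO values at Ppp1cc, and the difference of 1.18 (SE 0.42) had an adjusted p of 0.602. With a library left out it ranged from 0.97 to 2.80, the highest without ASA replicate 1, and it was 2.29 without ASA replicate 3. Prelid3b, with a 32-base exon at a DMSO mean of -5.94, and Polr2e, a shared RNA polymerase subunit, with a 33-base exon at -4.99, complete the group of low exons with distant neighbours.

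The 4 highest exons in DMSO among named genes were covered many times more densely than the median exon of their genes. In Klc3, a kinesin light chain, a 41-base exon was at 5.01, 4.09 and 5.60 in DMSO and at 4.25, 1.14 and 2.57 in ASA (chr1:80306913-80306953). In Ryr1, a calcium release channel, a 43-base exon was at 4.94, 3.55 and 4.42 in DMSO and 3.81, 2.11 and 3.04 in ASA. Atp5f1c, the gamma subunit of the mitochondrial ATP synthase, had a 35-base exon at 3.89, 4.78 and 4.56 in DMSO and 3.5, 4.24 and 3.45 in ASA. A 31-base exon of Hnrnpk, itself an RNA-binding splicing factor, lay 29 bases from its neighbour and had a DMSO mean of 3.94. In all 4 exons the ASA mean was lower than the DMSO mean, the libraries overlapped, and no difference passed the test. The choice of exons by a high DMSO mean favours that direction, so it is no measure of ASA. Compared with the pair of neighbouring exons in place of the gene's median, the difference at Ryr1, Atp5f1c and Hnrnpk changed sign, to 0.07, 0.03 and 0.11.

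**Figure D2:**
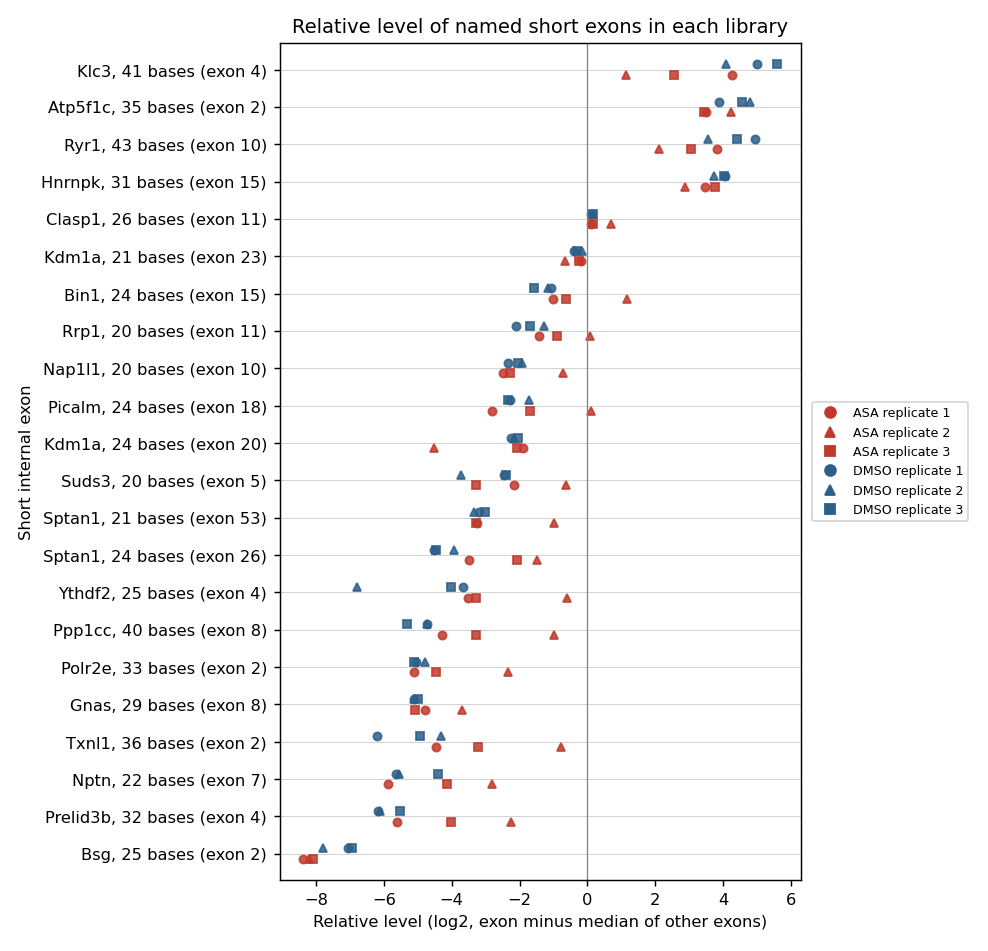
Relative level (log2, exon minus median of other exons) in each of the 6 libraries for short exons named by rank, by length or as microexons of listed genes, ordered by DMSO mean. Red symbols are ASA and blue symbols DMSO, with circles, triangles and squares for replicates 1, 2 and 3, and the ASA replicate 2 triangle often lies to the right of the other symbols in the lowest exons, as at Txnl1 (-0.77).

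Genes known for microexons gave a mixed picture, with exons covered at or above their gene's median exon beside sparsely covered exons. A list of 72 such genes, most of them described in neurons, had 66 in the table. Short exons were listed in 24 of them, 38 in all, of which 31 were longer than 27 bases and 6 had a close neighbour. The median relative level of the 38 in DMSO was 0.10, against 0.62 for all short exons. There were 18 below 0 and 10 below -1.

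Sptan1, which encodes alpha-II spectrin of the submembrane cytoskeleton, held both kinds. Its 24-base exon 26 (chr3:8573540-8573563, exons being numbered along the chromosome as in the table) stood at -4.52, -3.92 and -4.46 in DMSO and at -3.49, -1.48 and -2.06 in ASA. Every ASA library lay above every DMSO library, on 34, 39 and 70 reads in ASA against 15, 16 and 14 in DMSO. By unweighted means the exon thus reached 5.07% of the gene's median exon in DMSO and 19.7% in ASA, where ASA replicate 2 was the highest value. The weighted difference was 1.55 (SE 0.42, 95% interval 0.56 to 2.54), with an adjusted p of 0.449, and it was 2.56 without ASA replicate 1.

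The neighbouring 36-base exon 27 of Sptan1 had a DMSO mean of 1.02 (SD 0.06, n = 3) and a difference of 0.03 (SE 0.11). A 21-base exon 53 of the same gene stood at -3.20, -3.34 and -3.00 in DMSO and at -3.26, -0.99 and -3.29 in ASA, where ASA replicate 2 alone was high. Of these 3 short exons of Sptan1, 1 was covered above the gene's median exon and the other two far below it in DMSO.

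Among clathrin-coat genes, Clta, the clathrin light chain A, had a 38-base exon 2 at a DMSO mean of 0.85 (SD 0.05) and a 36-base exon 6 at -4.64 (SD 0.21). Exon 6, at chr5:59507705-59507740, lies in the part of the gene where neurons insert extra coding sequence. Its values were -4.84, -4.66 and -4.42 in DMSO and -4.72, -2.09 and -4.25 in ASA, with a difference of 0.20 (95% interval -0.61 to 1.01). Picalm, a clathrin assembly protein, had a 42-base exon at 0.92 and a 31-base exon at 0.89 in DMSO, both above the gene's median exon. Its 24-base exon 18 stood at -2.28, -1.71 and -2.35 in DMSO and -2.80, 0.10 and -1.70 in ASA. Snap91, the related assembly protein of nerve endings, had 2 short exons at DMSO means of 1.02 and 0.96.

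Among cell adhesion and scaffold genes of the list, levels ranged widely. Ncam1, the neural cell adhesion molecule, had a 30-base exon (chr8:53883716-53883745) at -3.60, -4.12 and -4.06 in DMSO and -4.00, -3.97 and -5.68 in ASA, and the groups overlapped. Nrcam, a related adhesion molecule, had a 30-base exon at 0.81, 1.11 and 1.15 in DMSO and 0.69, 0.49 and 0.34 in ASA. Each ASA library was lower there, and the difference of -0.49 (SE 0.15) had an adjusted p of 0.506. Nrcam as a gene fell from 24.1 to 10.3 RPKM (log2 fold change -1.21, adjusted p = 0.0358, limma), so the exon was compared with a gene that itself fell. Ppfibp1, a liprin of adhesion sites, had 3 short exons at DMSO means of -0.62, -0.37 and -1.0. Its 33-base exon 18 stood at -0.98, -1.54 and -0.47 in DMSO and -0.51, 0.70 and 0.02 in ASA, and the difference of 0.73 (SE 0.31) did not pass (adjusted p = 0.688).

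Microtubule and translation genes held further sparse exons. Kif1b, a kinesin motor that carries vesicles and mitochondria, had a 42-base exon at a DMSO mean of -2.57 (SD 0.57), a 40-base exon at 0.57 (SD 0.04) and a 34-base exon at -0.06 (SD 1.06). Dctn1, the large subunit of dynactin, had a 35-base exon at 1.03 (SD 0.11). Eif4g3, a scaffold of translation initiation, had a 33-base exon at -2.43, -1.93 and -2.23 in DMSO and -2.21, -0.46 and -1.56 in ASA. Bin1, a membrane-bending adaptor, had a 24-base exon at -1.06, -1.15 and -1.59 in DMSO and -1.02, 1.15 and -0.64 in ASA. The ASA libraries of Bin1 all lay above those of DMSO, by a margin of 0.04 at the closest, and the difference of 0.46 (SE 0.23) had an adjusted p of 0.756. It was 1.52 without ASA replicate 1, 1.33 without ASA replicate 3 and 0.31 without DMSO replicate 3.

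Rows with close neighbours in these genes were less informative. Kdm1a, a histone demethylase, had a 24-base row at a DMSO mean of -2.16 and a 21-base row at -0.29, 1 and 2 bases from the next listed row. The 26-base row of Clasp1, which binds microtubule ends, lay 5 bases from the next row at a DMSO mean of 0.15. Ptprs, a receptor phosphatase of synapses, had a 30-base and a 36-base row side by side at -0.31 and -0.39.

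Several genes of secretion and signalling, picked after their values were seen, illustrate the range in an endocrine cell. Gnas, which encodes the stimulatory G protein subunit Gs alpha, was among the most abundant genes, at 6000 RPKM in DMSO and 2784.5 in ASA (log2 fold change -1.13, adjusted p = 0.0523, limma). The 45-base exon 7 (chr3:172427143-172427187) is the alternative exon that distinguishes the long and short forms of Gs alpha. It stood at 0.72, 0.75 and 0.70 in DMSO and 0.79, 0.01 and 0.80 in ASA. Its relative level in ASA replicates 1 and 3 thus lay within 0.10 of the DMSO mean while the gene's level was lower, and the difference was 0.05 (95% interval -0.16 to 0.27). A 29-base row of Gnas at a DMSO mean of -5.07 and a 30-base row at 1.39 lie 1 base apart, and neither is read here as inclusion.

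Snap25, a SNARE protein of vesicle fusion, had 7 short rows among 22 annotated exons. Their DMSO means ran from -2.44 for a 41-base exon to 1.94 for a 42-base exon. The 21-base exon 17 stood at -1.63, -1.25 and -1.53 in DMSO and -1.16, -0.02 and -0.15 in ASA, without overlap. Its difference was 0.83 (SE 0.27) with an adjusted p of 0.556. Vamp4, a SNARE of the trans-Golgi network, had a 26-base exon at 0.54 (SD 0.04), and Rab3gap1, which regulates the Rab3 GTPases of secretory vesicles, had a 24-base exon at 1.35 (SD 0.04). A 21-base exon of Tmbim6, an endoplasmic reticulum membrane protein, was at 1.36 in each DMSO library and 1.32 to 1.35 in ASA. An exon of 21 bases could thus be covered more densely than its gene's median exon.

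Cell-surface genes of the pituitary gave 2 of the lower values with ASA. Nrp2, a receptor for semaphorins and vascular growth factors, had a 21-base exon at -0.85, -0.63 and -0.55 in DMSO and -1.58, -3.50 and -1.89 in ASA (chr9:69580914-69580934). No ASA library reached the DMSO range, and the difference of -1.08 (SE 0.19) had an adjusted p of 0.24. Igsf1, a pituitary membrane protein whose loss causes central hypothyroidism, had a 27-base exon at -1.90, -2.67 and -1.67 in DMSO and -2.67, -3.20 and -3.49 in ASA. The difference was -1.03 (SE 0.35, adjusted p = 0.576).

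Other membrane proteins had differences of either sign, none past the test. A 20-base exon of Cacnb3, the beta-3 subunit of voltage-gated calcium channels, stood at -2.0, -1.34 and -1.40 in DMSO and -2.48, -3.32 and -2.06 in ASA. Its difference was -0.69 (SE 0.26, adjusted p = 0.635). A 24-base exon of Aplp1, a relative of the amyloid precursor protein, stood at -3.19, -3.42 and -2.89 in DMSO and -2.70, -2.65 and -2.61 in ASA, a difference of 0.50 (SE 0.21, adjusted p = 0.698). Ptprn, a granule membrane protein, had a 35-base exon at 0.29 (SD 0.05). The exons of Vamp4 and Ptprn were thus covered at or above their gene's median exon in both groups.

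The shortest listed exons were 8 of 20 bases, with DMSO means from -2.86 to 1.03. Suds3, a subunit of a histone deacetylase complex, had its exon at -2.47, -3.72 and -2.39 in DMSO and -2.18, -0.62 and -3.27 in ASA. Rrp1, a ribosome biogenesis factor, stood at -2.11, -1.29 and -1.69 in DMSO and -1.42, 0.07 and -0.91 in ASA. The overlap between groups at Rrp1 came from ASA replicate 1. Nap1l1, a histone chaperone, stood at -2.35, -1.93 and -2.04 in DMSO and -2.47, -0.73 and -2.28 in ASA.

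With ASA, no short internal exon changed its relative level past the test. In limma with library weights and Benjamini-Hochberg adjustment over 107855 exons, 0 of 2588 short exons had an adjusted p under 0.05, and the smallest was 0.148. Of all exons fitted, 34 (0.0315%) were called, 12 higher (0.0111%) and 22 lower (0.0204%), in 10 genes, with 17 in Abcb4 and 6 in Fdps, and the shortest had 46 bases. At an unadjusted p under 0.05 there were 256 short exons (9.89%), 122 higher and 134 lower, against 7.23% of all exons, 3.49% higher and 3.74% lower. Among those of 27 bases or less the count was 34 of 275 (12.4%).

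The groups did not overlap in 342 short exons (13.2%), 167 higher and 175 lower with ASA, against 11.9% of all exons fitted, 5.99% higher and 5.94% lower. The median difference over the short exons was 0.00, with a 5th percentile of -0.45 and a 95th of 0.44, against -0.33 and 0.32 over all exons. The short exons therefore spread wider around the same centre, and their values were also less precise. Their median SE was 0.139, against 0.123 over all exons and 0.186 in exons of 27 bases or less.

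What the libraries could resolve is best read from the intervals of the weighted fit. They hold for that weighting, in which ASA replicate 2 counted for little (weight 0.0641). The 95% interval reached a median of 0.33 to either side on the log2 scale. For 2253 short exons (87.1%) the whole interval lay between -1 and 1, against 94.0% of all exons, and in exons of 27 bases or less the share was 70.9%. For the remaining short exons the interval held values beyond a factor of 2 in at least 1 direction, either because it was wide or, as at Ano5 (0.87 to 1.67), because the estimate itself was large. Differences larger than 1 in either direction were estimated for 52 short exons (2.01%), against 0.670% of all exons, and none of the 52 passed. The median relative level over all short exons was 0.61, 0.60 and 0.62 in DMSO and 0.63, 0.45 and 0.60 in ASA, where replicate 2 was the low value.

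**Figure D3:**
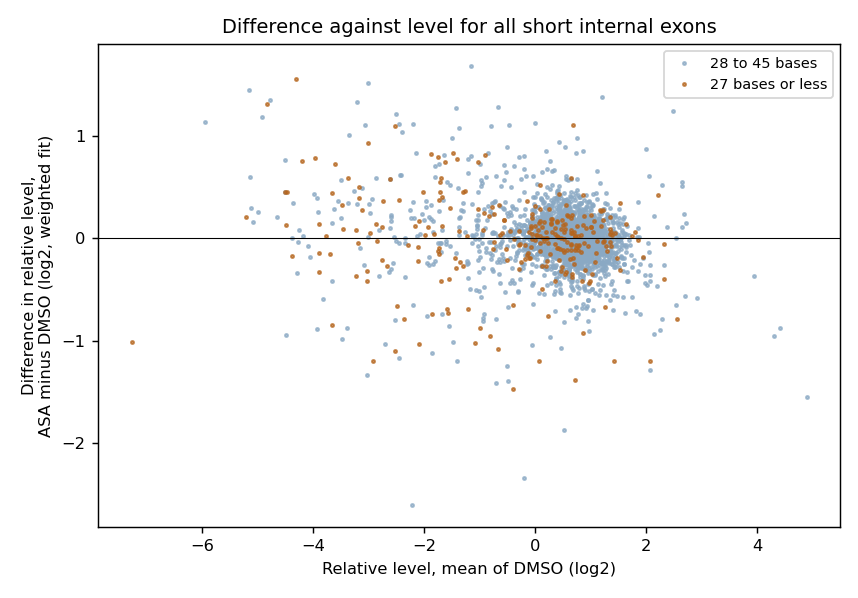
Difference in relative level, ASA minus DMSO (log2, weighted fit), against mean relative level in DMSO (log2) for all 2588 short internal exons, with brown points for exons of 27 bases or less and blue points for 28 to 45 bases. Points centre on a difference of 0.00 and spread wider at low DMSO levels.

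Of the 12 exons of named genes with the smallest p, chosen after their values were seen, 10 are described here. They show how far single members differed without passing. In Ano5, a membrane protein of the anoctamin family, a 42-base exon (chr1:106900831-106900872) stood at -1.60, -1.15 and -1.53 in DMSO and at -0.34, -0.29 and 0.01 in ASA. By unweighted means it went from 37.2% to 86.5% of the gene's median exon, and the weighted difference of 1.27 (SE 0.17) had an adjusted p of 0.148. The reads of the Ano5 exon were 54, 17 and 40 in ASA and 22, 19 and 24 in DMSO, so they overlapped. For Wdr76, a DNA damage-linked WD-repeat protein, a 44-base exon stood at -0.16, -0.13 and -0.29 in DMSO and 0.44, 0.29 and 0.54 in ASA. Its reads did not rise, at 29.5, 22.5 and 34 in ASA and 40.5, 32.5 and 42 in DMSO. Wdr76 as a gene stood at 11.5 RPKM in DMSO and 5.95 in ASA (adjusted p = 0.0596, limma), so the exon was compared with a gene at a lower level. In Eif4e2, a cap-binding protein that represses translation, a 43-base exon stood at -2.52, -2.20 and -2.49 in DMSO and -1.58, -0.71 and -1.20 in ASA. Its reads were 103, 88 and 115 in ASA and 67, 81 and 75 in DMSO.

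Itfg2, a component of a lysosomal signalling complex, had a 42-base exon at a DMSO mean of 0.54 (SD 0.23) and an ASA mean of 1.29 (SD 0.22). Its reads overlapped, at 113, 37 and 85 in ASA and 104, 74 and 96 in DMSO, while the gene stood at 16.7 RPKM in DMSO and 9.69 in ASA.

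The other 6 exons described had lower values with ASA. Tmf1, a Golgi protein, had a 41-base exon (chr4:129529422-129529462) at 1.88, 2.20 and 2.13 in DMSO and at 1.16, 0.50 and 0.36 in ASA, on 100 to 111 reads in DMSO and 28 to 36 in ASA. Its difference was -1.28 (SE 0.22) with an adjusted p of 0.216. Tmf1 as a gene stood at 28.4 RPKM in DMSO and 28.5 in ASA, while its median exon averaged 7.68 RPKM. The reads of the exon itself did not overlap between the groups, which its selection by small p favours. Morf4l1, a chromatin protein of histone acetyltransferase complexes, had a 26-base exon at 1.25, 1.48 and 1.53 in DMSO and -0.04, -0.32 and 0.51 in ASA, with a difference of -1.20 (SE 0.17) and an adjusted p of 0.166. The reads of that exon were 5, 72 and 15 in ASA and 22, 25 and 22 in DMSO, so they overlapped between the groups. The median exon of Morf4l1 averaged 11.8 RPKM, while the gene stood at 50.5 RPKM in DMSO and 61.8 in ASA.

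Cd55, an inhibitor of complement on the cell surface, had a 21-base exon at -0.52, -0.27 and -0.39 in DMSO and -1.07, -0.79 and -1.05 in ASA. Kcnab3, a beta subunit of potassium channels, had a 44-base exon at 0.77, 1.16 and 1.02 in DMSO and 0.12, -1.36 and 0.05 in ASA. The remaining 2 were exons of 42 bases in Ulk2, an autophagy kinase, and of 38 bases in Aff2, a nuclear RNA-binding protein. Their differences were -0.78 and -0.66. All 10 exons had no overlap between groups, which their selection by small p favours.

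**Figure D4:**
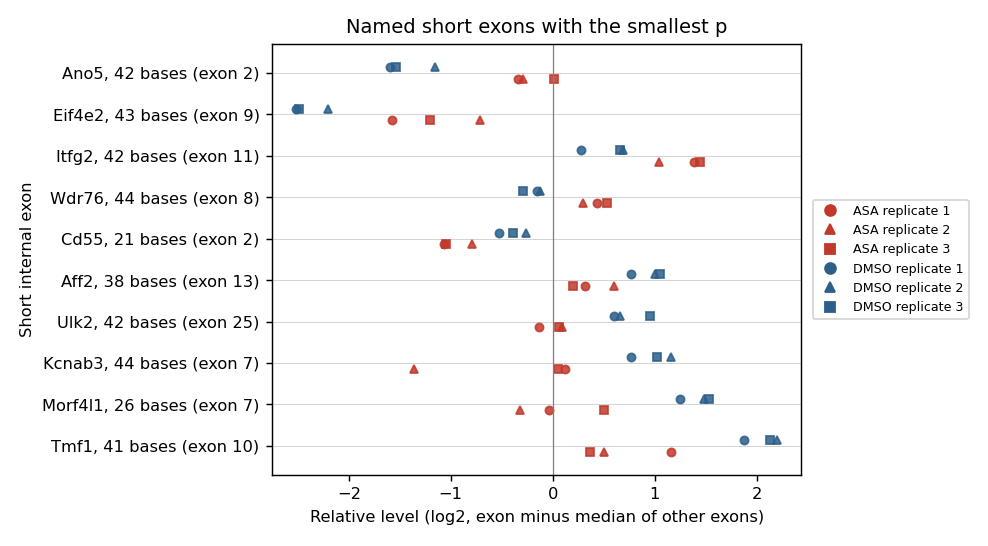
Relative level (log2, exon minus median of other exons) in each library for 10 of the 12 short exons of named genes with the smallest p. ASA is in red and DMSO in blue, with circles, triangles and squares for replicates 1, 2 and 3. The exons are ordered by difference, from Tmf1 (-1.28) at the bottom to Ano5 (1.27) at the top, and none passed the adjusted threshold.

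The call of 0 was tried with other references and tests. Without library weights no exon of any length was called, and 132 short exons (5.10%) had an unadjusted p under 0.05, against 3.05% of all exons. Without ASA replicate 2 no short exon was called while 18 exons of all lengths were, and 223 short exons (8.62%) had an unadjusted p under 0.05, against 6.33% of all exons. Against the pair of neighbouring exons, or with ASA replicate 1 or 3 left out, no exon of any length was called.

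Under 2 settings a single short exon was called, in each case lower with ASA. Measured against the summed reads of the other exons, Tmf1 passed (adjusted p = 0.0355), in a fit that called 38 exons (0.0352%) of all lengths. With voom and diffSplice on recovered reads, a 34-base exon of Clasp2, which stabilises microtubule ends, passed (adjusted p = 0.0337), in a fit that called 13 exons (0.0121%), and 62 short exons (2.40%) had an unadjusted p under 0.05, against 1.40% of all exons. The Clasp2 exon (chr8:122076863-122076896) had 37, 36 and 63 reads in DMSO and 22, 0 and 18 in ASA. Its relative level was -1.71, -1.52 and -0.96 in DMSO and -2.33, -8.24 and -2.63 in ASA, where -8.24 reflects 0 reads and the small constant in the deposited log values. In the weighted fit, which gives that library little weight, the difference was -1.19 (SE 0.47) with an adjusted p of 0.653.

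Genes of factors that act on short exons were lower more often than higher. Of 53 such genes on a list of RNA-binding proteins, 45 were listed and tested, and 30 of the 45 had a negative log2 fold change, as had 6691 of all 12502 genes tested. In limma on log2(RPKM + 0.1), 6 fell and 0 rose, against 4.99% of all 12502 genes that fell and 6.21% that rose (11.2% together). The median log2 fold change of the 45 was -0.38, and that of all genes was -0.06.

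Ptbp1, the main repressor of neuronal and short exons, stood at 199, 134 and 189 RPKM in DMSO and at 109, 96.9 and 81.9 in ASA. It fell by 0.85 on the log2 scale (SE 0.21, adjusted p = 0.0453). Its paralog Ptbp2, which takes over in developing neurons, stood at 15.7, 10.6 and 13.9 RPKM in DMSO and 10.1, 32.5 and 15.5 in ASA (adjusted p = 0.569). Hnrnpa2b1 and Hnrnpk, abundant nuclear ribonucleoproteins, fell by 1.10 and 0.85, and Tardbp, which represses cryptic exons, fell by 1.03. Khdrbs1 and Khdrbs3, STAR-family splicing factors, fell by 0.84 and 0.77. With the median exon as the gene value the change was -0.43 for Hnrnpa2b1 and -0.30 for Hnrnpk (adjusted p = 0.657 and 0.66), against -0.76 for Ptbp1, -1.05 for Khdrbs1 and -0.72 for Khdrbs3. Only Tardbp and Hnrnpl passed with that value, and with ASA replicate 3, DMSO replicate 1 or DMSO replicate 3 left out none of the 45 passed.

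Srrm3, which promotes microexon inclusion, and the named Rbfox, Nova and Celf genes did not pass. Srrm3 stood at 29.5, 30.7 and 28.8 RPKM in DMSO and 31.4, 10.3 and 21.5 in ASA, with replicate 2 the low value (adjusted p = 0.304). Rbfox2 was at a mean of 57.3 RPKM (SD 3.40) in DMSO and 67.8 (SD 5.87) in ASA, and Rbfox1 at 3.81 and 3.42. Nova1 stood at 5.61, 5.63 and 4.74 in DMSO and 3.79, 1.96 and 3.14 in ASA (adjusted p = 0.127), and Nova2 at means of 7.01 and 7.46. Celf4 had a mean of 86.0 RPKM (SD 15.3) in DMSO and 131 (SD 39.6) in ASA (adjusted p = 0.17). Srrm4, Rbfox3, Elavl3, Elavl4, Qk, Rbm24, Hnrnpc and Raver2 were not analysed here. In bulk RNA, fewer cells that express a factor and less of its RNA per cell cannot be told apart.

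**Figure D5:**
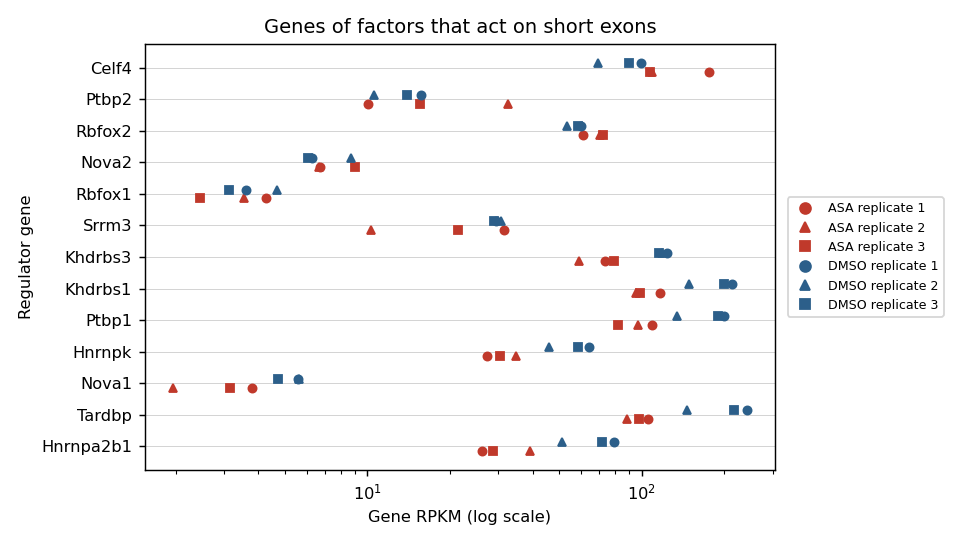
Gene RPKM (log scale) of regulators of short exons in each library, for the 6 that fell and 7 others named whatever their result, with ASA in red, DMSO in blue and circles, triangles and squares for replicates 1, 2 and 3. Ptbp1 lies at 81.9 to 109 RPKM in ASA and at 134 to 199 in DMSO, while Srrm3 and Ptbp2 overlap between the groups.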

How the data were processed

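Poly(A) RNA-seq libraries of 3 ASA and 3 DMSO samples were analysed. Per the submitters' processing notes, the tools were edgeR 3.26.8, TopHat2 2.1.0 with Bowtie2, and Trim Galore 0.4.1 with cutadapt 1.14, and the genome build was Rnor_6.0. No source used here gives the read length, the counting tool or its strand setting, so overlapping or antisense genes may share reads. The authors deposited log2 RPKM per exon, and 95.7% to 96.8% of values per library came out as whole reads within 0.02 of a read, after removing the small constant added before the log. The relative level (exon minus median of the gene's other exons) was fitted for genes of 5 or more exons whose median exon averaged at least 1 RPKM, which all 2588 short exons passed, with limma 3.58.1 in R 4.3.3 (arrayWeights, eBayes with trend, two-sided, Benjamini-Hochberg, threshold 0.05). The fit was also run on simulated data with independent normal scatter set from these libraries. That simulation held no read counts, so it does not show how the fit performs on sparsely covered exons. Gene values, summed over exons, were fitted as log2(RPKM + 0.1) at a mean of at least 0.5 RPKM. Of the short exons, 310 had at most 10 reads in at least 1 library, and each had over 10 reads in at least 4.

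Exons named were those past the threshold (none) and microexons of at most 27 bases in listed genes. Also named were the 8 lowest and 4 highest in DMSO in genes without placeholder symbols, and 3 of the 8 shortest (first by identifier). Beside these, and chosen after values were seen, stand longer short exons of the listed microexon genes and exons of secretory and signalling genes. Chosen in the same way were exons with the smallest p in genes without placeholder symbols and exons called by an alternative. Regulators named were a fixed set and those past the threshold. The members, gene lists and library weights were chosen with earlier results of these data known. Alternatives covered weights, reference, pseudocount, filter, variance model, test and left-out libraries. Sequences were not used here, and a few items are not reported here.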

Additional observations from a re-analysis of the deposited data

How the results depend on the processing

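No short exon was called higher with ASA under any of the alternatives run. The count of lower calls was 0 except for 1 against the summed reads of the other exons (Tmf1) and 1 with voom and diffSplice (Clasp2), and 0 with each library left out. The cause was not tested. The count of regulators that fell was 6, and became 2 with the median exon as gene value and 0 to 9 with a library left out. The median relative level in DMSO was 0.615, and was 0.584 with 1 RPKM added and 0.668 without exons under 50 bases from a neighbour, an alternative chosen after seeing the data. Leaving out a DMSO library gave 0.613 to 0.622.

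Of the alternatives for the named exons, 332 kept the direction and 36 reversed it, all at exons that were never called. Clasp1 gave 0.17 without library weights, 0.0023 against other internal exons, 0.011 against neighbours and 0.090 with voom and diffSplice. Without weights and with voom and diffSplice, in that order, Sptan1 exon 53 gave 0.67 and 0.63, Picalm 0.65 and 0.68, Nap1l1 0.28 and 0.38, the Kdm1a 24-base row -0.68 and -0.48, and its 21-base row -0.079 and -0.040. Against neighbours, Hnrnpk gave 0.11, Ryr1 0.067 and Atp5f1c 0.026. With a library left out, Clasp1 ranged from -0.017 to 0.28, Sptan1 exon 53 from -0.12 to 1.05, Picalm from -0.23 to 1.34, the Kdm1a rows from -1.14 to 0.17 and from -0.15 to 0.12, Nptn from -0.00048 to 1.73, Suds3 from -0.23 to 1.39 and Nap1l1 from -0.36 to 0.63.

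No listed rows overlapped or touched, so leaving such rows out changed nothing, and the gene fit with library weights was not run because its weights did not converge. No paired analysis was possible because the labels give no replicate numbers. Precision was lower in exons of 27 bases or less, where 70.9% had an interval within -1 to 1 against 87.1% of all short exons, and the part of depth in this was not tested.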
